A study of Danio rerio with 4 samples.

Results

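In the telencephalon of adult zebrafish, 112 radial glia each held transcripts of at least 2 of 5 genes known from ventral midline cells: the homeobox factor nkx2.1 and the secreted guidance proteins ntn1b, slit2, slit3 and spon1b. They were 2.67% of 4193 cells rich in fabp7a, a fatty acid binding protein of radial glia, among 4857 cell barcodes in all. A cell was a member when it had at least 300 genes detected, at most 25% mitochondrial UMIs (unique molecular identifiers, 1 per captured transcript), at least 0.5% of its UMIs from fabp7a, and UMIs of at least 2 of the 5 genes. The other 4081 fabp7a cells are called other cells below, and these 6 genes, having chosen the members, are described without a test.

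Radial glia of the adult zebrafish telencephalon line the ventricle and are the stem cells from which new neurons arise, and their gene expression differs with the region they line. In vertebrate forebrains Nkx2.1 marks ventral territories, the medial ganglionic eminence, the preoptic region and the hypothalamus, where it responds to Sonic hedgehog and specifies the neurons made there. Slits are ligands of Robo receptors and mostly repel axons, netrins bind DCC, neogenin and Unc5 receptors and attract or repel them, and F-spondin (spon1) is a matrix protein first described in the floor plate. Together such proteins steer commissural axons and migrating neurons at the ventral midline.

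The cells came from fish aged 3 to 7 months carrying a dTomato reporter under the GFAP promoter, Tg[GFAP:dTomato]nns17Tg, and were sorted for dTomato after papain dissociation. The 4 groups were injured MTZ, uninjured MTZ, injured and uninjured, with 7 telencephalons pooled into 1 library for each, and injury was a stab lesion examined 3 days later. MTZ stands for metronidazole, a prodrug that nitroreductase turns into a toxin inside the cell. The MTZ fish also carried Tg[mpeg1:NTR-EYFP]w202, in which the mpeg1 promoter of microglia and macrophages drives that enzyme, so that MTZ, strain and pool cannot be told apart. Group names follow the sample titles, since the treatment label gives a stab lesion for every library, and each group rests on 1 library, so no difference between groups has a replicate check. Libraries held 2942274 to 7541363 UMIs in 741 to 1657 barcodes, with 15 barcodes shared between pairs of libraries and 0 of these among members.

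The members numbered 42 in the injured MTZ library, 25 in the uninjured MTZ library, 37 in the injured library and 8 in the uninjured library, with 382686, 81171, 343555 and 52684 UMIs. The uninjured library thus gives the least precise values, and intervals throughout cover counting error only. A member held a median of 7054 UMIs in the injured MTZ library, against 4104 in its other cells, and 2105 against 2745 in the uninjured MTZ library. The medians were 9538 against 3774 in the injured library and 7312 against 3343 in the uninjured library. Members were deeper than other cells in 3 of 4 libraries and shallower in the uninjured MTZ library, and other cells matched on UMIs are set beside the results for that reason.

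slit2 (ENSDARG00000004246) had a UMI in 93 members (83.0%) and ntn1b (ENSDARG00000022531) in 89 (79.5%), against 1.64% and 0.956% of other cells. nkx2.1 (ENSDARG00000019835) was detected in 65 members (58.0%), slit3 (ENSDARG00000034268) in 45 (40.2%) and spon1b (ENSDARG00000023694) in 43 (38.4%), against 0.319%, 0.392% and 1.45% of other cells. The commonest pair was ntn1b with slit2, in 73 members, then nkx2.1 with slit2 in 54 and nkx2.1 with ntn1b in 51, and slit3 with spon1b was the rarest, in 11. Of the members, 44 had 2 of the genes, 33 had 3, 27 had 4 and 8 had all 5. Just outside the rule, 194 fabp7a cells had 1 of the genes, at a median of 4324 UMIs, and the cells with 2 had a median of 4865.5. At the fabp7a limit, 5 members lay under 0.75%, and 11 filtered cells with 2 or more of the genes fell below 0.5%.

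The summed levels of these genes in members are given by library as a description only, since the genes had chosen the cells. nkx2.1 stood at 196 CPM in members of the injured MTZ library, 111 in the uninjured MTZ library, 198 in the injured library and 152 in the uninjured library, against 1.06, 0.293, 2.89 and 0.749 CPM in the other cells of those libraries, where CPM is UMIs per 1000000 UMIs of the summed cells. ntn1b had 549, 480.5, 629 and 740.3 CPM in members of the same 4 libraries in that order and slit2 had 311, 591, 338 and 475. slit3 had 123, 296, 26.2 and 152 CPM and spon1b 186, 37, 178 and 133. By these values the uninjured MTZ members were the lowest of the 4 in nkx2.1, ntn1b and spon1b and the highest in slit2 and slit3. These members were shallow, at a median of 2105 UMIs, and 17 of the 25 held only 2 of the genes. The order therefore depends on the choice of cells, and a difference in level between libraries was not tested. nkx2.1 had a UMI in 29 of 42 injured MTZ members, 7 of 25 uninjured MTZ members, 25 of 37 injured members and 4 of 8 uninjured members.

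The 5 markers were each read in cells that the others had chosen. Cells were picked by at least 2 of the other 4 genes, and the left-out gene was higher in them than in the remaining fabp7a cells in 4 of 4 libraries for each of the 5. The ratios of CPM for nkx2.1 were 56.0 in the injured MTZ library, 52.3 in the uninjured MTZ library, 36.2 in the injured library and 203 in the uninjured library. Those of ntn1b were 63.8, 30.0, 81.2 and 219, and those of slit2 37.6, 47.7, 50.3 and 37.4, in the same order of libraries. slit3 gave 97.3, 27.2, 16.3 and 96.7. spon1b gave 56.3, 4.26, 29.8 and 18.4, and its ratio of 4.26 in the uninjured MTZ library rested on 2 UMIs, with a 95% interval of 0.482 to 17.5 that includes 1. There spon1b had 0 UMIs in the chosen cells, against 6.26 CPM in the remaining cells, with at least 800 genes required per cell and at most 10% mitochondrial UMIs. With fabp7a at 1% or more it had 0 against 6.08 CPM. The 95% intervals of these counts of 0 reached 51.8 and 47 CPM, so neither shows a direction. With cells thinned to 1000 UMIs, slit2 was at 0 in the chosen cells of 2 libraries and spon1b in those of 3, each of at most 11 cells. nkx2.1 was then at 0 in the 2 chosen cells of the uninjured library and slit3 in the 9 of the injured library. Only ntn1b stayed higher in 4 of 4 libraries when thinned. The 5 genes were proposed together from these data.

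**Figure D1:**
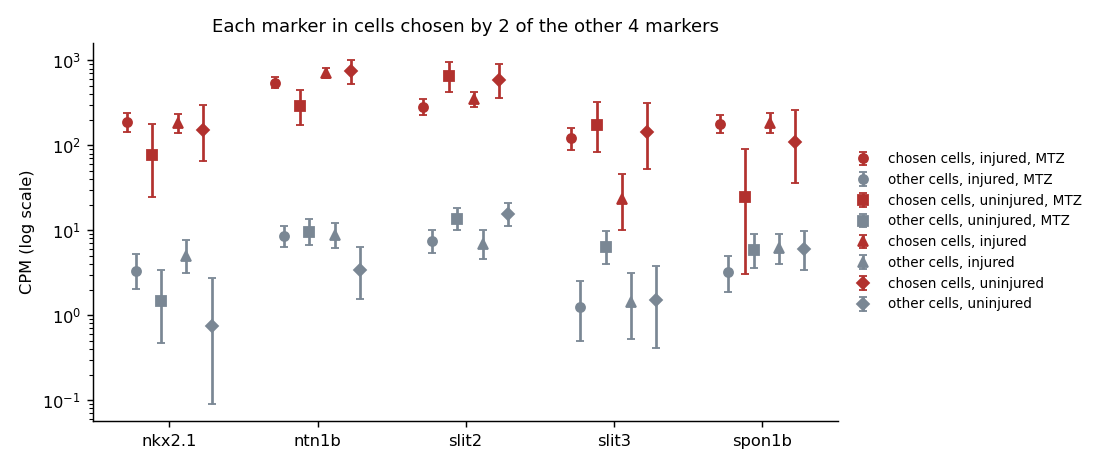
Level of each marker, in CPM on a log scale, in cells chosen by 2 of the other 4 markers (red) and in the other fabp7a cells (grey), with 1 symbol per library and 95% Poisson intervals. Red lies above grey in 20 of 20 pairs, and the closest pair is spon1b in the uninjured MTZ library, at a ratio of 4.26.

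Members also lay near each other in the rest of their expression. For this the 5 marker genes of the rule were left out, as were mitochondrial and ribosomal protein genes, whereas fabp7a was not. Taking nearest cells from other libraries only, members made up a mean of 45.95% of the 15 nearest fabp7a cells of a member. They made up 3.04% around other cells matched to the members on UMIs, and 0.691% around all other cells, with members at 2.67% of the pool. By library the mean around members was 41.7% in the injured MTZ library, 38.4% in the uninjured MTZ library, 51.4% in the injured library and 66.7% in the uninjured library. In 45 of the 112 members most of the 15 nearest cells were members, and the rest lay mostly among other fabp7a cells.

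Members also expressed radial glia markers that the rule did not use, at sums below those of other cells in each library. All cells were sorted for a GFAP reporter and chosen on fabp7a, so this describes the members and is no independent check of the label. The summed level of 9 radial glia markers besides fabp7a was 27952 CPM in members of the injured MTZ library, 43476 in the uninjured MTZ library, 29358 in the injured library and 49370 in the uninjured library, against 38922, 48060, 32364 and 51524 CPM in other cells, and none of the 9 was at 0. s100b had 4286, 4226, 4494 and 2581 CPM in members, against 3160.0, 4918, 4327 and 4363 CPM in other cells, in the same order, with a log2 fold change of -0.38 ± 0.21 (SE) that did not pass the test described next (adjusted p = 0.35). Markers of erythrocytes were at 0 in members, and those of T or NK cells and endothelial cells reached at most 5.23 and 24.6 CPM. Those of microglia or macrophages were at 88.8, 37, 143 and 0 CPM in members of the injured MTZ, uninjured MTZ, injured and uninjured libraries, against 51.7, 184.7, 119 and 7.87 CPM in other cells. Neutrophil markers were at 62.7 CPM in injured MTZ members, against 1.77 CPM in other cells of that library, from 1 of 8 markers, and at 0 in members of the other libraries. Mural cell markers were at 760, 1552, 864 and 1139 CPM in members of the same 4 libraries, against 907, 1017, 714.9 and 895 CPM in other cells. Of these UMIs in members 91.4% to 96.7% were of notch3, which radial glia also express. Without notch3 the mural markers were at 65.3, 123, 61.1 and 38 CPM in members, against 117, 100.1, 115 and 108 CPM in other cells. Immature neuron markers summed to 878, 986, 635 and 342 CPM in members of the injured MTZ, uninjured MTZ, injured and uninjured libraries, against 518, 330.5, 659.6 and 499.5 CPM in other cells, with 3 or 4 of 8 markers at 0 in members, and their part in the results was not tested. At least 3 markers of 1 other cell type were found in 19 members, 7 in the injured MTZ library, 4 in the uninjured MTZ library, 8 in the injured library and 0 in the uninjured library, of which the lists of multiciliated ependymal cells accounted for 1, 2, 5 and 0. Of the 112, 8 passed on the lists of mature neurons, microglia, oligodendrocytes, endothelial cells, mural cells or fibroblasts, the 6 lists by which cells were left out in an alternative, and 4 fell among the doublets by Scrublet score. The word ventral comes from nkx2.1 itself, and the other regional genes follow below.

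UMIs were summed over members and over other cells of each library, and the 8 sums were compared with edgeR's quasi-likelihood test with the library as a block and Benjamini-Hochberg adjustment over 13796 genes. At an adjusted p under 0.05, 281 genes (2.04%) were higher in members and 508 (3.68%) lower, 5.72% in all. These shares over all genes are the background for the counts of each gene list below. The 5 markers of the rule are among the 281, where their place says nothing beyond the choice, and fabp7a was not called. Scaled by library totals instead of TMM factors, the same counts gave 469 higher and 315 lower genes, because the median log2 fold change over all genes moved by 0.23, from -0.18 under TMM to 0.05, and folds below are relative to the TMM centre. Genes above the other cells in 4 of 4 libraries numbered 1041 (7.55%) and genes below in all 4 numbered 2104 (15.3%). Against 1 depth-matched other cell for each member, which removes most of the UMIs compared, 117 genes were higher and 137 lower, and 90 and 129 of these were among the first calls. Without the injured MTZ library 142 genes were higher and 399 lower, and without the injured library 191 and 257.

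**Figure D2:**
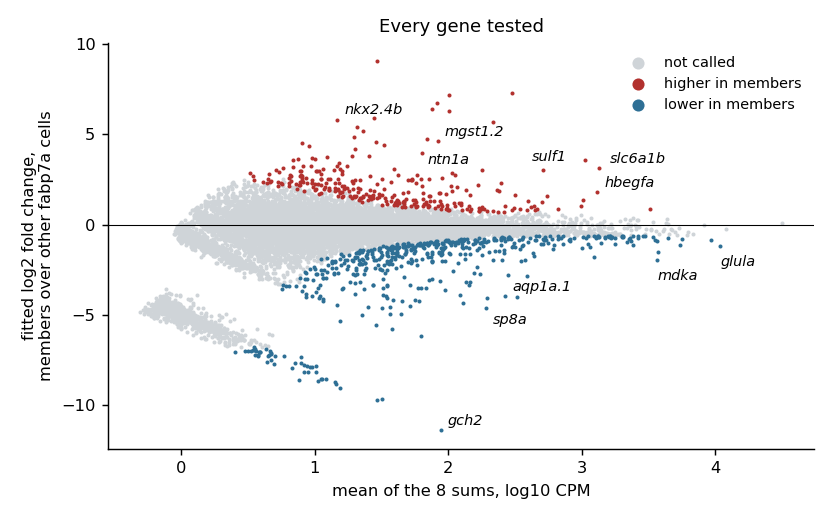
Fitted log2 fold change of members over other fabp7a cells for every gene tested, against the mean of the 8 sums in log10 CPM. The 281 higher genes are red and the 508 lower genes blue, and the 5 markers of the rule are among the red without a label. slc6a1b, sulf1 and mgst1.2 are labelled among the higher and aqp1a.1, sp8a and mdka among the lower.

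Among the genes highest in members were a GABA transporter, heparan sulfate sulfatases and a glutathione transferase. slc6a1b stood at 1620.1 CPM in members of the injured MTZ library, 2649 in the uninjured MTZ library, 2151 in the injured library and 3455 in the uninjured library, against 145, 329, 173 and 316 CPM in the other cells of those libraries. This gene encodes the GABA transporter GAT1, which clears the transmitter from the extracellular space, and it was detected in 85.7% of members and 21.4% of depth-matched other cells (log2 fold change 3.12 ± 0.22 (SE), adjusted p = 5.3e-44). sulf1 and sulf2a encode extracellular enzymes that strip sulfate from heparan sulfate and so alter how it binds growth factors. sulf1 had 834, 727, 963 and 1177 CPM in members, against 121, 100.4, 50.3 and 119 CPM in other cells (log2 fold change 3.03 ± 0.23 (SE), adjusted p = 3.7e-38), in the same order of libraries. sulf2a was at 56.9 to 137 CPM in members and 10.1 to 20.2 CPM in other cells (log2 fold change 2.76 ± 0.32). Members were above other cells in 4 of 4 libraries for these 3 genes, as for 7.55% of the genes tested.

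A glutathione transferase and a glutathione peroxidase were also higher. mgst1.2 had 133, 234, 87.3 and 189.8 CPM in members, against 3.54, 10.2, 3.85 and 4.12 CPM in other cells, and this microsomal glutathione transferase was found in 54.5% of members and 2.68% of depth-matched other cells (log2 fold change 4.62 ± 0.34 (SE), adjusted p = 7.3e-40). gpx3, an extracellular glutathione peroxidase, was at 47 to 148 CPM in members and 6.02 to 20.2 CPM in other cells (log2 fold change 2.53 ± 0.35). dhrs3b, a retinaldehyde reductase, was at 83.6 to 189.8 CPM in members and 28.1 to 66 CPM in other cells (log2 fold change 1.32 ± 0.29, adjusted p = 0.00031), which did not pass against depth-matched cells. The 15 highest genes with a spread over many cells also included six3a and olig2, described below, and endouc, znf536, krr1, ptprna, adgrv1, tagln2 and slc16a9a. Their log2 fold changes ran between 1.90 for slc16a9a, of a monocarboxylate transporter family, and 2.54 for znf536, a zinc finger protein.

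At the low end, 763 of the genes tested had 0 UMIs in the 112 members, and 49 of these were called lower. The 10 with the lowest fold changes under the rule for named genes are described here. gch2, a GTP cyclohydrolase of pteridine synthesis, had 0 CPM in members of all 4 libraries, against 194, 156, 112 and 238 CPM in other cells. It was at least 49.3-fold lower, taking 3 UMIs over the members as the limit of a count of 0, and 38.4% of depth-matched other cells had a UMI of it. By the same limit elfn1b was at least 15.8-fold lower, the AP-2 factor tfap2a at least 8.91-fold and the matrix proteoglycan bgnb at least 7.79-fold. The remaining 6, palm1b, arrb1, rprma, tfap2c, foxo6b and tnfrsf9a, were at least 4.53-fold lower, and tnfrsf9a lost its call without the injured library (adjusted p = 0.63).

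Of the 14 slit, netrin and spondin genes, 13 were measured, 4 had chosen the members and 3 of the rest had enough UMIs for a test, of which 1 was higher and 0 lower. That gene was ntn1a, the second netrin1 copy. ntn1a stood at 267 CPM in members of the injured MTZ library, 61.6 in the uninjured MTZ library, 218 in the injured library and 228 in the uninjured library, against 27.3, 9.07, 30.5 and 19.1 CPM in the other cells of those libraries (log2 fold change 2.88 ± 0.29 (SE), adjusted p = 6.7e-21). Its members were above the other cells in each library, and 47.3% of members and 12.5% of depth-matched other cells had a UMI. spon1a, the second F-spondin copy, was at 12.3 to 114 CPM in members and 4.33 to 16.1 CPM in other cells and did not pass the test (log2 fold change 1.33 ± 0.48, adjusted p = 0.089). The median over the 3 was 1.33, against -0.18 over all genes.

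Guidance receptors, not only those of slits, netrins and spondins, went both ways. Of 18 tested, 3 were higher, 3 lower and 12 not called, with a median log2 fold change of 0.21. The 3 lower ones were of the Robo family. robo1 had 13.1, 24.6, 23.3 and 56.9 CPM in members, against 78.4, 63.2, 58.7 and 102 CPM in other cells (log2 fold change -1.90 ± 0.38 (SE), adjusted p = 3.3e-05). robo2 had 5.23, 24.6, 17.5 and 19 CPM in members, against 54.2, 58.8, 47.9 and 60.7 CPM in other cells (log2 fold change -2.21 ± 0.44 (SE), adjusted p = 2.9e-05). robo4 was at 2.91 to 20.9 CPM in members and 29.6 to 58.1 CPM in other cells (log2 fold change -1.97 ± 0.46), and its call was lost without the injured library (adjusted p = 0.20). Against depth-matched cells robo1 was not called (adjusted p = 0.77), whereas robo2 was.

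The higher receptors were nrp1a, unc5db and nrp2b. Neuropilins are co-receptors of semaphorins and VEGF, and unc5db encodes a netrin receptor of the Unc5 family. nrp1a had 28.7, 24.6, 20.4 and 0 CPM in members, against 0.177, 1.17, 3.61 and 1.5 CPM in other cells, higher in 3 of 4 libraries (log2 fold change 3.66 ± 0.66 (SE), adjusted p = 3e-06). unc5db was at 15.7 to 61.6 CPM in members and 2.66 to 11.1 CPM in other cells (log2 fold change 2.03 ± 0.53) and above in each library. nrp2b was higher in 2 of 4 libraries, with 180.3, 24.6, 99 and 19 CPM in members, against 31, 24.9, 33.9 and 35.6 CPM in other cells, so its call (log2 fold change 1.36 ± 0.31) rested on the injured libraries. Against depth-matched cells 0 of the 3 were called. Without the injured MTZ library 0 were called (adjusted p = 0.054 for nrp1a, 0.058 for unc5db and 0.53 for nrp2b), and without the injured library unc5db (0.057) and nrp2b (0.053) were not.

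Among 21 other guidance cues 1 was higher and 4 were lower (median log2 fold change -0.85). efnb2a stood at 78.4 CPM in members of the injured MTZ library, 24.6 in the uninjured MTZ library, 93.1 in the injured library and 342 in the uninjured library, against 689, 319, 538 and 1026 CPM in the other cells of those libraries (log2 fold change -2.84 ± 0.26 (SE), adjusted p = 2.8e-25). efnb2a encodes ephrin-B2, a membrane ligand of Eph receptors. draxin, a secreted repellent that binds netrin1 and its receptor DCC, was at 0, 24.6, 0 and 0 CPM in members, against 80, 145, 27.7 and 74.9 CPM in other cells (log2 fold change -4.95 ± 0.61 (SE), adjusted p = 1e-13). Its member UMIs came from 1 cell. The semaphorin sema3aa was at 0 to 2.61 CPM in members and 11.1 to 23.6 CPM in other cells (log2 fold change -3.87 ± 0.99), and efna2a, an ephrin-A ligand, was lower in 3 of 4 libraries (log2 fold change -2.20 ± 0.56). sema3aa lost its call without the injured or injured MTZ library (adjusted p = 0.073 and 0.052), and efna2a without the injured MTZ library (0.28). The higher cue was efna1a, another ephrin-A ligand, at 98.6 to 152 CPM in members and 22.5 to 74.6 CPM in other cells (log2 fold change 1.12 ± 0.28, adjusted p = 0.0025), which was not called against depth-matched cells or without the injured library (adjusted p = 0.076).

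The ventral and subpallial factors split: of 20 tested, 5 were higher and 6 lower, with a median log2 fold change of -1.27. nkx2.4b, a homeobox gene closely related to nkx2.1, had 18.3, 12.3, 29.1 and 56.9 CPM in members of the injured MTZ, uninjured MTZ, injured and uninjured libraries, against 0.177, 0.293, 0.721 and 0 CPM in other cells (log2 fold change 5.81 ± 0.73 (SE), adjusted p = 4.7e-13). It was found in 17 members (15.2%) and 0.123% of other cells. Its members were above other cells in 4 of 4 libraries, as for 7.55% of the genes tested. six3a, a homeobox factor of the anterior forebrain, had 83.6, 49.3, 46.6 and 38 CPM in members, against 7.97, 13.5, 6.49 and 9.74 CPM in other cells (log2 fold change 2.54 ± 0.39 (SE), adjusted p = 1.1e-08). olig2, a bHLH factor of ventral progenitors and of the oligodendrocyte lineage, had 75.8, 98.6, 119 and 56.9 CPM in members, against 13.1, 22.8, 7.7 and 25.5 CPM in other cells (log2 fold change 2.45 ± 0.33 (SE), adjusted p = 1e-11). It was detected in 34.8% of members, and of 7 oligodendrocyte precursor markers, olig2 among them, 5 or 6 were at 0 in the members of each library.

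six3b and foxa1 completed the 5 on few UMIs. six3b had 14 UMIs in members and was higher in 3 of 4 libraries (log2 fold change 3.07 ± 0.67), and 83.3% of the foxa1 UMIs lay in 1 cell (log2 fold change 3.07 ± 0.67). six3b lost its call without the uninjured MTZ library (adjusted p = 0.40) and foxa1 without the uninjured library (0.88). The 6 lower factors included sp8a, sp8b, gsx2, arxa and ascl1a, of which ascl1a lost its call without the injured MTZ library (adjusted p = 0.58). sp8a had 2.61, 37, 14.6 and 56.9 CPM in members, against 285, 255, 327 and 546 CPM in other cells (log2 fold change -4.62 ± 0.35 (SE), adjusted p = 7.2e-36). sp8a and gsx2 mark lateral ganglionic eminence territories in mammals, and gsx2 had 105, 37, 49.5 and 19 CPM in members, against 231, 123, 169.5 and 336 CPM in other cells (log2 fold change -1.93 ± 0.28 (SE), adjusted p = 1.2e-09). Summed over 6 floor plate markers besides the rule genes, members of the injured MTZ, uninjured MTZ, injured and uninjured libraries had 0, 12.3, 8.73 and 285 CPM. Other cells had 19.6, 32.8, 17.8 and 34.5 CPM. The 285 CPM came from 15 UMIs, with 5 of 6 markers at 0. Of the floor plate genes, shha, shhb and foxa2 had 0 UMIs in members, as had nkx2.2a, against 20, 12, 8 and 124 UMIs in other cells. A count of 0 allows up to 3 UMIs over the 860096 of the members, so the first 3 are not detectable at this depth rather than shown to be lower.

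Several genes of the dorsal telencephalon were far lower in members. Of 19 dorsal pallial factors 6 were lower and 3 higher (median log2 fold change -1.99). emx3 stood at 18.3 CPM in members of the injured MTZ library, 37 in the uninjured MTZ library, 0 in the injured library and 19 in the uninjured library, against 244, 182, 209.9 and 325 CPM in the other cells of those libraries (log2 fold change -4.34 ± 0.37 (SE), adjusted p = 1.5e-28). emx2 had 7.84, 0, 14.6 and 19 CPM in members, against 119, 131, 79.4 and 126 CPM in other cells (log2 fold change -3.53 ± 0.42 (SE), adjusted p = 8.8e-15). pax6a had 2.61, 12.3, 8.73 and 114 CPM in members, against 187, 110.3, 142 and 177 CPM in other cells (log2 fold change -3.66 ± 0.39 (SE), adjusted p = 1.5e-18). emx3 and emx2 are homeobox genes of the pallium and pax6a a paired-box gene of its progenitors, and 3.57%, 6.25% and 5.36% of members had a UMI of them, against 52.7%, 36.6% and 42.9% of depth-matched other cells. nr2f2, nr2f1a and pax6b were the other 3 that fell, with log2 fold changes of -2.39, -1.59 and -1.99. pax6b lost its call without the injured, uninjured or injured MTZ library (adjusted p = 0.26, 0.068 and 0.52). The 3 higher ones were foxb1a, wnt8b and her9. Among members with nkx2.1 the log2 fold changes of foxb1a and wnt8b were -1.52 and -6.77, so their higher level lay in members without it. foxb1a lost its call without the uninjured library (adjusted p = 0.20), wnt8b without the uninjured MTZ or injured MTZ library (0.94 and 0.16), and her9 without the injured or injured MTZ library (0.31 and 0.60).

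**Figure D3:**
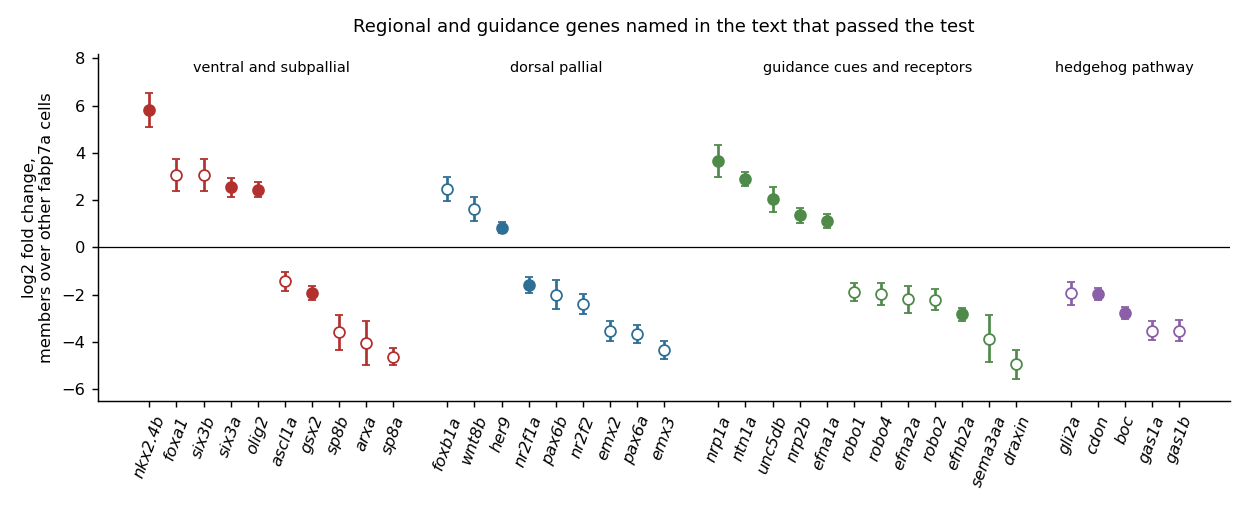
Log2 fold change of members over other fabp7a cells, with a standard error derived from the test's F statistic, for regional, guidance and hedgehog genes named here that passed the test, sorted within each group. Open symbols mark genes with under 20 UMIs in members or over 30% of them in 1 cell. nkx2.4b at 5.81 and ntn1a at 2.88 lie above 0, and emx3 at -4.34, sp8a at -4.62 and draxin at -4.95 below.

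Of 10 preoptic and hypothalamic factors 1 was higher and 4 lower (median log2 fold change -2.75). fezf2 had 0, 0, 2.91 and 0 CPM in members, against 45.8, 63.8, 58.4 and 132 CPM in other cells (log2 fold change -5.80 ± 0.70 (SE), adjusted p = 3.2e-14), and this zinc finger factor of forebrain progenitors was also in 18.8% of depth-matched cells. fezf1 and lhx2b had log2 fold changes of -2.08 and -1.92. The higher one, barhl2, was found in 6 members, 5 of them without nkx2.1. foxg1a, the forkhead factor that defines the telencephalon, did not pass the test: it had 277, 431, 341 and 475 CPM in members, against 400.2, 459.5, 345 and 615 CPM in other cells (log2 fold change -0.52 ± 0.22, adjusted p = 0.17). It was detected in 63.4% of members and 69.6% of depth-matched cells, and it was below the other cells in 4 of 4 libraries. It was called lower without cells carrying markers of the 6 other types (adjusted p = 0.045). It was also called lower in a pair of settings in which most calls were lower, with cells thinned to 1000 UMIs (median log2 fold change over all genes -2.57, 11 genes higher and 419 lower) and with each gene counted once per cell (196 higher and 1055 lower).

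Co-receptors for hedgehog ligands were lower in members. Of 18 hedgehog pathway genes 5 were lower and 0 higher (median log2 fold change -1.06), and against depth-matched cells 4 were lower. boc stood at 75.8 CPM in members of the injured MTZ library, 49.3 in the uninjured MTZ library, 81.5 in the injured library and 152 in the uninjured library, against 535, 412, 456 and 493 CPM in the other cells of those libraries (log2 fold change -2.78 ± 0.27 (SE), adjusted p = 8.6e-23). cdon was at 67.9 to 189.8 CPM in members and 272 to 442 CPM in other cells (log2 fold change -1.98 ± 0.26 (SE), adjusted p = 5.6e-12). gas1a had 15.7, 12.3, 8.73 and 0 CPM in members, against 112, 84.6, 105 and 212 CPM in other cells (log2 fold change -3.52 ± 0.40 (SE), adjusted p = 1.1e-15). boc, cdon and the gas1 proteins bind hedgehog ligands at the cell surface and help them act through Patched. gas1b fell likewise (log2 fold change -3.53 ± 0.45), and gli2a, a transcription factor of the pathway, was lower in 3 of 4 libraries (log2 fold change -1.95 ± 0.49, adjusted p = 0.0024), a call lost without the injured or injured MTZ library (0.11 and 0.074). The target genes ptch1 and hhip had few UMIs and were not called: ptch1 was at 0 to 5.82 CPM in members and 3.72 to 13.5 CPM in other cells and hhip at 12.3 to 189.8 CPM in members and 25.3 to 35.1 CPM in other cells (adjusted p = 0.36).

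Most general radial glia genes stayed uncalled, and a few were well below. Of 23 tested, 2 were higher and 5 lower (median log2 fold change -0.38), against depth-matched cells 4 were higher and 3 lower, and with each gene counted once per cell 0 were higher and 19 lower. aqp1a.1 stood at 23.5 CPM in members of the injured MTZ library, 61.6 in the uninjured MTZ library, 32 in the injured library and 38 in the uninjured library, against 448, 392, 391 and 748 CPM in the other cells of those libraries (log2 fold change -3.97 ± 0.30 (SE), adjusted p = 2.2e-36). For this water channel members were below other cells in 4 of 4 libraries, as for 15.3% of the genes tested. mdka, the secreted growth factor midkine, had 1949, 2094, 827 and 2335 CPM in members, against 5446, 7579, 4040.5 and 5218 CPM in other cells (log2 fold change -1.98 ± 0.21 (SE), adjusted p = 4.8e-18). glula, the glutamine synthetase of glia, had 6399.5, 7909, 5359 and 10857 CPM in members, against 14555, 15162, 10177 and 16876 CPM in other cells (log2 fold change -1.20 ± 0.21 (SE), adjusted p = 7.5e-07). vim and her4.2 had smaller changes (log2 fold changes -0.85 and -0.62) and lost their calls against depth-matched cells. Without the injured MTZ library vim (adjusted p = 0.060) and her4.2 (0.090) were not called, and her4.2 was not called without the injured (0.088) or uninjured library (0.58) either. gfap was not called, at 304 to 878 CPM in members and 492 to 772 CPM in other cells (adjusted p = 0.18), nor were sox2, cx43 and slc1a2b. slc1a3b, a glutamate transporter, was higher (log2 fold change 0.78 ± 0.23, adjusted p = 0.014), but not against depth-matched cells, nor without the injured or injured MTZ library (0.11 and 0.84).

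Notch genes gave 2 higher and 6 lower of 26 (median log2 fold change -0.30), and 0 and 1 against depth-matched cells. jag1a, a Notch ligand of the Serrate type, had 23.5, 24.6, 11.6 and 94.9 CPM in members, against 0.354, 1.46, 0.962 and 0.375 CPM in other cells (log2 fold change 4.89 ± 0.67 (SE), adjusted p = 3.9e-11). dla, a Delta ligand, had 52.3, 24.6, 111 and 0 CPM in members, against 283, 284, 205 and 353 CPM in other cells (log2 fold change -2.34 ± 0.28 (SE), adjusted p = 1.3e-14). The receptor notch3 and the target her4.1 were not called (adjusted p = 0.95 and 0.68). In WNT and BMP signalling 2 of 24 genes were higher and 3 lower, with wnt7aa at 165, 160.2, 105 and 228 CPM in members, against 501, 589, 400.4 and 665 CPM in other cells (log2 fold change -2.00 ± 0.24 (SE), adjusted p = 2.5e-14). The list medians are set against -0.18 over all genes, and the counts against 2.04% higher and 3.68% lower of all genes tested.

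FGF and retinoid signalling had 9 lower genes and 2 higher of 31 (median log2 fold change -0.86), and 2 and 1 against depth-matched cells. dhrs3b was among the higher ones. The lower ones included cyp26c1, an enzyme that degrades retinoic acid, with 5.23, 0, 0 and 0 CPM in members, against 48.9, 67.3, 41.1 and 92.6 CPM in other cells (log2 fold change -4.64 ± 0.63 (SE), adjusted p = 3.2e-11). The FGF receptors fgfr1a, fgfr2, fgfr3 and fgfr4 fell, with log2 fold changes between -2.15 and -1.26, but 0 of them were called against depth-matched cells. Without the injured library fgfr1a and fgfr3 were not called (adjusted p = 0.13 and 0.34), without the injured MTZ library fgfr1a and fgfr4 (0.20 and 0.14), and without the uninjured MTZ library fgfr4 (0.068). Matrix and adhesion genes gave 1 higher and 3 lower of 28 (median -0.67), but 3 higher and 1 lower against depth-matched cells and with DESeq2, and 4 and 1 with library totals. The summed list was at 3374, 4275, 3510.4 and 3682 CPM in members of the injured MTZ, uninjured MTZ, injured and uninjured libraries, against 2496, 2931, 2494 and 2863 CPM in other cells. Among the lower genes was hapln1a, a link protein of the hyaluronan matrix, at 47, 0, 11.6 and 38 CPM in members, against 103, 113, 63 and 80.6 CPM in other cells (log2 fold change -1.99 ± 0.36 (SE), adjusted p = 2.4e-06).

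Of 22 immediate early genes 11 were lower in members and 0 higher (median log2 fold change -0.74), with 6 lower against depth-matched cells and 0 without the library block. The summed list was at 25865, 25969.9, 30505 and 50566 CPM in members of the injured MTZ, uninjured MTZ, injured and uninjured libraries, against 44085, 36845, 43674 and 44534 CPM in other cells, so it was higher in members of the uninjured library. ier2b had 191, 357, 343 and 835 CPM in members, against 605, 782, 765 and 972 CPM in other cells (log2 fold change -1.33 ± 0.22 (SE), adjusted p = 1.4e-07). egr1 had 648, 653, 835 and 2429.6 CPM in members, against 1599, 1190.4, 1653 and 2119.5 CPM in other cells (log2 fold change -1.02 ± 0.21 (SE), adjusted p = 6e-05), and was higher in members of the uninjured library. These genes respond to cell dissociation, and whether that differed between the classes was not tested. The interferon list had 1 lower gene of 27 (median -0.06), reactive glia 1 higher and 4 lower of 24 (median -0.25), and cholesterol synthesis 3 lower of 22 (median -0.15), of which 0 were called against depth-matched cells. Of all genes tested 2.04% were higher and 3.68% lower, so 1 lower gene of 27 does not set the interferon list apart. Neuronal differentiation had 3 lower of 14 (median -0.83), elavl3 among them, which was not called without the injured library (adjusted p = 0.32).

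Proliferation genes were higher in members as a group, through few cells. Of 27 tested, 16 were higher and 0 lower (median log2 fold change 1.26). top2a had 112, 0, 26.2 and 0 CPM in members, against 11.5, 2.63, 6.01 and 1.5 CPM in other cells (log2 fold change 2.47 ± 0.48 (SE), adjusted p = 2.3e-05), and kpna2 had 60.1, 0, 8.73 and 0 CPM in members, against 2.48, 0.878, 1.68 and 1.5 CPM in other cells (log2 fold change 3.27 ± 0.69 (SE), adjusted p = 0.00015). Of the UMIs of the whole list in members, 41.8% lay in 3 cells, and 29 of 112 members had none. Against depth-matched cells 1 gene was higher, with each gene counted once per cell 0 were higher and 1 was lower, and among members with nkx2.1 5 were higher. Without the injured MTZ library 5 were higher and without the injured library 8, and top2a was then not called in the first case (adjusted p = 0.42).

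Members with an nkx2.1 UMI, 65 cells with 553321 UMIs, and members without, 47 cells with 306775 UMIs, were set side by side without a test, since the uninjured library had 4 cells of each. With members having nkx2.1 set against the other fabp7a cells, 157 of the 281 higher genes (55.9%) and 414 of the 508 lower ones (81.5%) were called again, and members without it were not fitted. The values here pool the libraries, and the uninjured MTZ library gave 7 of the 65 cells with nkx2.1 and 18 of the 47 without. The part of this makeup in the values was not tested. slc6a1b stood at 2246 CPM in members with nkx2.1 and 1672 in members without, sulf1 at 976 and 753, and mgst1.2 at 114 and 153. Other genes were further apart: six3a was at 83.1 CPM with nkx2.1 and 26.1 without, olig2 at 117 and 52.2, and her4.1 at 3696 and 1434. sp8a was at 1.81 CPM with nkx2.1 and 35.9 without, and pax6a at 1.81 and 32.6. fabp7b had 0 UMIs with nkx2.1 and 106 without, in 7 cells, and wnt8b 0 and 21.

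Members were a larger share of fabp7a cells in the injured libraries. They were 42 of 1296 in the injured MTZ library (3.24%, exact 95% interval 2.35 to 4.36), 25 of 1254 in the uninjured MTZ library (1.99%, 1.29 to 2.93), 37 of 960 in the injured library (3.85%, 2.73 to 5.27) and 8 of 683 in the uninjured library (1.17%, 0.507 to 2.29). The intervals overlapped in the MTZ pair and not in the other pair. An alternative chosen after seeing the data thinned cells to 3000 UMIs and dropped those with fewer. Members were then 27 of 846 injured MTZ cells (3.19%) and 5 of 570 uninjured MTZ cells (0.877%). In the other pair they were 26 of 591 injured cells (4.40%) and 5 of 385 uninjured cells (1.30%). The intervals were apart in the MTZ pair and overlapped in the other. With at least 3 of the 5 genes required members were 2.16%, 0.638%, 2.81% and 0.732% in the injured MTZ, uninjured MTZ, injured and uninjured libraries, apart in both pairs. Thinned to 1000 UMIs, with cells below that dropped, members were 0.891%, 0.560%, 0.977% and 0.462%, and all intervals overlapped. Shares are of sorted cells, and sorting, depth and pool were not tested as sources of the difference.

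Interferon genes and antigen presentation genes were higher in members of the injured libraries. The summed list reached 5430.0, 986, 5787 and 949 CPM in members of the injured MTZ, uninjured MTZ, injured and uninjured libraries, against 3089.9, 1175, 5667 and 1219.8 CPM in other cells. Within members the ratio was 5.51-fold (95% interval 4.41 to 6.98) in injured MTZ over uninjured MTZ and 6.1-fold (95% interval 4.61 to 8.24) in injured over uninjured, and in other cells 2.63 and 4.65. Of the UMIs of the list 43.2% lay in 3 of the 42 injured MTZ members and 29.7% in 3 of the 37 injured members. The median member had 29.9 list UMIs per 10000 in the injured MTZ library and 27.8 in the injured library, against 9.01 in the uninjured MTZ library and 9.41 in the uninjured library.

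The whole interferon list held 80 UMIs in uninjured MTZ and 50 in uninjured members, against 2078 in injured MTZ and 1988 in injured members. Its genes thus reached a minimum of 50 UMIs mainly through the injured libraries, so the counts that follow are no test of the rise. Of the genes of the list with at least 50 UMIs, 7 of 7 were at least 2-fold higher in injured MTZ than in uninjured MTZ members. In injured over uninjured members 8 of 9 were, against 14.9% and 17.7% of all genes at that minimum in the 2 pairs. The exception was irf1b, an interferon regulatory factor, at 224 CPM in injured members, against 266 CPM in uninjured members (log2 ratio -0.29, 95% interval -1.08 to 0.69; 2.19 in other cells), with 78.6% of its 14 uninjured member UMIs in 1 cell. mhc1uba, an MHC class I gene, was at 1390.2 CPM in injured MTZ members, against 73.9 CPM in uninjured MTZ members (log2 ratio 4.12, 95% interval 3.10 to 5.69; 1.30 in other cells). It had 225 UMIs in injured members and 0 in uninjured members, at least 11.5-fold higher. Over all members, 23.3% of its 763 UMIs lay in 1 cell. isg15, an interferon-induced ubiquitin-like protein, was at 1647 CPM in injured members, against 94.9 CPM in uninjured members (log2 ratio 3.98, 95% interval 2.89 to 5.75; 4.29 in other cells), and at least 20.7-fold higher in injured MTZ than in uninjured MTZ members, where it had 0 UMIs. The transducer stat1a had log2 ratios of 1.68 in the MTZ pair and 1.19 in the other, and b2m, the light chain of MHC class I, 1.23 and 1.76.

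Cholesterol synthesis genes went the other way. The cholesterol list was at 1095, 3844, 736 and 3549 CPM in members of the injured MTZ, uninjured MTZ, injured and uninjured libraries, against 1261, 3493, 851 and 2817 CPM in other cells. The ratio within members was 0.285-fold (95% interval 0.245 to 0.331) in the MTZ pair and 0.207-fold (95% interval 0.171 to 0.252) in the other, and 0.361 and 0.302 in other cells. insig1, a sterol-regulated brake on the pathway, was at 265 CPM in injured members, against 1746 CPM in uninjured members (log2 ratio -2.72, 95% interval -3.16 to -2.29). id2a, an inhibitor of bHLH factors, was at 695 CPM in injured MTZ members, against 2562 CPM in uninjured MTZ members (log2 ratio -1.88, 95% interval -2.15 to -1.61), and at 492 CPM in injured members, against 2354 CPM in uninjured members (log2 ratio -2.26, 95% interval -2.60 to -1.91). In other cells its log2 ratios were -0.29 and -0.43. Another member of the family, id1, had log2 ratios of -1.68 and -1.14 in members of the MTZ and the other pair, whereas id2b had 0.37 and -1.57. her6, a Notch target, had log2 ratios of -1.64 and -1.3 in members and -0.64 and -0.96 in other cells. her4.1 had -1.27 and 0.06 and her9 0.05 and 0.75 in members, so the her genes did not share a direction. The summed Notch list had ratios of 0.397-fold (95% interval 0.375 to 0.419) and 0.642-fold (95% interval 0.6 to 0.688) in members, and 0.606 and 0.505 in other cells.

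Proliferation genes summed to 3279, 973, 2707 and 304 CPM in members of the injured MTZ, uninjured MTZ, injured and uninjured libraries, against 1285, 747, 1032 and 753 CPM in other cells. The ratio within members was 3.37-fold (95% interval 2.68 to 4.29) in the MTZ pair and 8.91-fold (95% interval 5.46 to 15.7) in the other, and 1.72 and 1.37 in other cells. In the injured MTZ library 75.3% of these UMIs lay in 3 members, in the injured library 54.6%, so the levels describe those cells. Reactive glia genes changed little in sum, with ratios of 1.17-fold (95% interval 1.09 to 1.26) and 1.33-fold (95% interval 1.22 to 1.45) in members and 1.28 and 1.37 in other cells. lin28a, an RNA-binding protein of that list, had 246 UMIs in 11 of the injured MTZ members and 0 in the uninjured MTZ members, at least 17.4-fold higher, and was at 11.3 CPM in other cells of the injured MTZ library. Whether members and other cells differed in their response was tested gene by gene with a class by injury term: 8 of 13796 genes (0.058%) had a positive term and 9 (0.0652%) a negative one, and their values stand in the closing part.

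**Figure D4:**
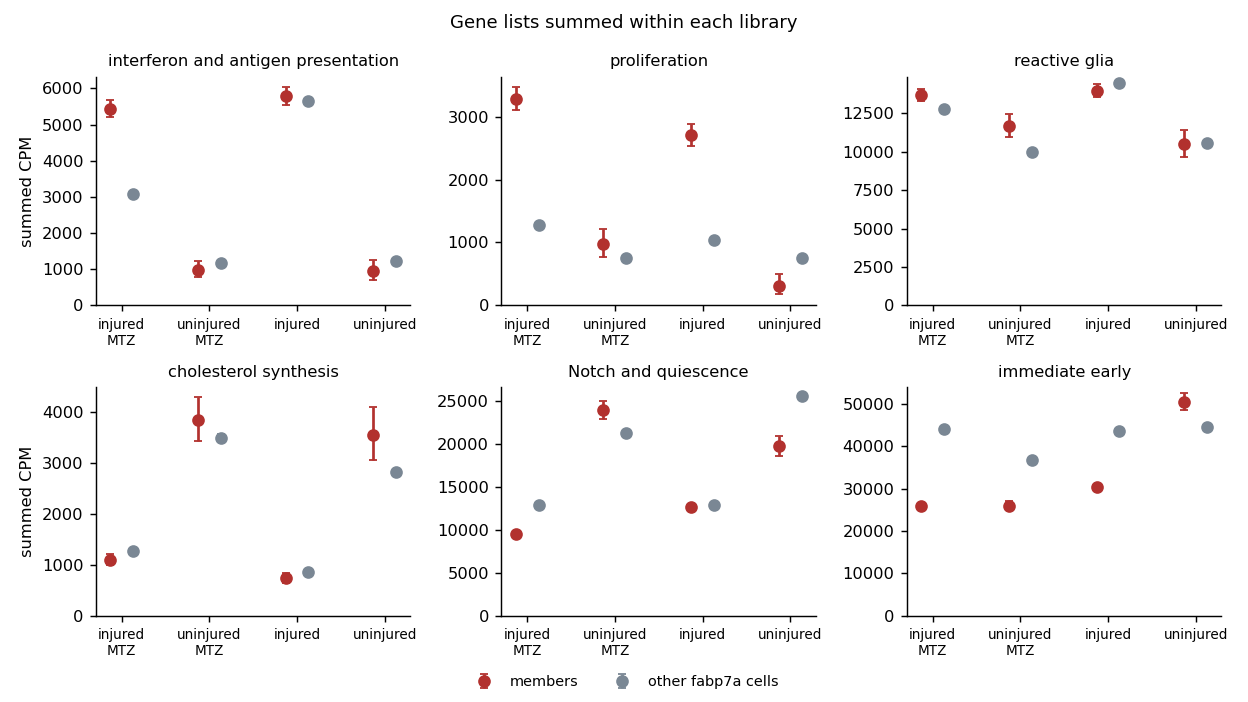
Summed CPM of 6 gene lists in members (red) and other fabp7a cells (grey) of each library, with 95% Poisson intervals. The interferon list is higher and the cholesterol list lower in both injured libraries than in their uninjured partners, and the proliferation list of members is highest in the injured MTZ library.

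Across all genes with at least 50 UMIs in a pair of member sums, 217 of 1453 (14.9%) were at least 2-fold higher in injured MTZ than in uninjured MTZ members and 104 (7.16%) at least 2-fold lower, against 4.26% and 4.4% in other cells. In injured over uninjured members 215 of 1212 (17.7%) were higher and 101 (8.33%) lower, against 4.62% and 5.2% in other cells. Small sums scatter more, so the larger share in members is no measure of a larger response. Examples below had at most 10% of their UMIs in 1 cell of the higher library and, among such genes, interval bounds far from 1. endouc, one of the genes higher in members, was at 627 CPM in injured MTZ members, against 185 CPM in uninjured MTZ members (log2 ratio 1.72, 95% interval 1.01 to 2.62). atp1a1b, a sodium pump subunit, was at 4123 CPM in injured MTZ members, against 8291 CPM in uninjured MTZ members (log2 ratio -1.01, 95% interval -1.14 to -0.88). In injured over uninjured members tuft1a, tma7, rps12 and rps10 were among the 5 highest by that measure, at log2 ratios of 1.53 to 2.58, and genes with more of their UMIs in 1 cell, such as isg15, had higher ratios.

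In injured MTZ over injured members, 4 of the 5 lowest ratios by the same measure were of heat shock genes, hsp70l, hsp70.2, hsp70.3 and dnajb1b. hsp70l, an inducible chaperone, was at 2383 CPM in injured MTZ members, against 8758 CPM in injured members (log2 ratio -1.88, 95% interval -1.99 to -1.77), and at 3275 and 7532 CPM in the other cells of those libraries. dnajb1b, its co-chaperone, was at 734 CPM in injured MTZ members, against 2332 CPM in injured members (log2 ratio -1.67, 95% interval -1.87 to -1.47; -0.76 in other cells). The small heat shock protein hspb1 was higher, at 540.9 CPM in injured MTZ members, against 276.5 CPM in injured members, with 80.2% of its UMIs in 1 injured MTZ cell. The hsp70 genes have near-identical copies, so how UMIs were split among them is uncertain, and these genes also respond to dissociation, which was not tested. In injured MTZ over injured members 121 of 2155 genes (5.61%) were at least 2-fold higher and 74 (3.43%) lower, against 2.1% and 3.48% in other cells. In uninjured MTZ over uninjured members 40 of 420 genes (9.52%) were higher and 37 (8.81%) lower, against 2.2% and 3.85% in other cells.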

How the data were processed

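Single-cell RNA of dTomato-sorted telencephalon cells was captured with the 10x Chromium 3' v3 kit, per the labels' protocols. The authors deposited raw UMI counts, 1 matrix of genes by barcodes per library, aligned to GRCz11 with Cell Ranger, given as version 3.1.0 in the submitters' processing notes and 4.0.0 in the matrix headers, per the file headers. The annotation release and the strand setting are not given in the sources used here. Each library has 25107 features, and the 518 symbols with more than 1 identifier were summed, leaving 24435 symbols.

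The members and the 18 gene lists were chosen with earlier results of these data known, so that no list is independent evidence, and the rule for named genes was written with those results in view. By that rule the text names the 15 highest and 10 lowest genes that passed the test, in the same direction in 4 of 4 libraries, with at least 50 UMIs (highest: in members, at most 10% of them in 1 cell; lowest: in other cells), leaving out the 6 rule genes and identifiers without a gene name, then the genes of each list that passed and up to 4 more of it by lowest p. Of 600 list and marker genes, 13 were not among the features and were not analysed here, and a few genes that the rule names are not reported here. slc6a1b, sulf1 and the like were thus read in cells chosen by other genes, but from the same data.

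UMIs were summed per library and class, and CPM is UMIs per 1000000 of that sum. Genes with at least 20 UMIs over the 8 sums were tested with edgeR 4.0.16 (glmQLFit, glmQLFTest, TMM, library as block, 3 residual degrees of freedom) in R 4.3.3, with Benjamini-Hochberg adjustment, and DESeq2 1.42.0 was an alternative. The block is the library from which both classes come, so the pairing is given by the design. The SE of an edgeR fold change is the size of the log2 fold change divided by the square root of the test's F statistic. It is not a spread over the libraries. The test of a class by injury term had 2 residual degrees of freedom. With 1 library per group, contrasts between groups are ratios with exact conditional 95% intervals and no p-value, called at 2-fold with at least 50 UMIs, most of which lay in the deeper library. Shares have Clopper-Pearson and CPM exact Poisson 95% intervals, which cover counting error only, and a count of 0 is read as at most 3. The p-values rest on the spread between 4 libraries, with dispersion shared across genes, so they do not measure the spread of each gene alone. These libraries are different groups and not replicates of 1 group. Scrublet (scanpy 1.11.5) marked the top 0.8% of cells per 1000 barcodes as doublets. They were kept and left out in an alternative. Neighbours came from 2000 variable genes and 30 principal components, without the 5 marker genes of the rule and without mitochondrial and ribosomal protein genes. fabp7a was not left out. The scripts were tested on simulated sums in which 100 genes were raised 2-fold and 100 4-fold, all drawn from genes with at least 50 UMIs in members. For members against other cells 31 and 100 of these were recovered, with 8 false calls. For the class by injury term 6 and 60 were recovered, with 1 false call. A gene that was not called may therefore still differ. The simulation drew sums and not cells, so it held no genes with their UMIs gathered in 1 cell. Its rates do not carry over to such genes, nor to genes with fewer UMIs in members. No genome or sequence table was used, so no coordinates or sequences are given.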

Additional observations from a re-analysis of the deposited data

Results flagged for a closer look

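A class by injury term asks whether the difference between members and other cells changes with injury. It passed for 17 of 13796 genes at an adjusted p under 0.05, 8 with a positive term (0.058%) and 9 with a negative one (0.0652%). The test was edgeR's quasi-likelihood test with Benjamini-Hochberg adjustment. In it the MTZ pair and the other pair each gave 1 injured and 1 uninjured library. A positive term means that members exceeded other cells by more in the injured libraries. Of the 13796 genes, 674 had an unadjusted p under 0.05 in this test. With each gene counted once per cell 0 of 13560 genes passed, and 433 had an unadjusted p under 0.05. Values below are log2 terms, then CPM in members of the injured MTZ, uninjured MTZ, injured and uninjured libraries, set against other cells of the same libraries.

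mhc1uba, an MHC class I gene, had a term of 3.23, with 1390.2, 73.9, 655 and 0 CPM in members, against 529, 215, 494 and 143 CPM in other cells. pcna, a replication clamp, had 2.53, with 523, 86.2, 442 and 0 CPM in members, against 234, 91.9, 141 and 100.1 CPM in other cells. The histone genes hist1h4l and h3f3b.1 had terms of 3.10 and 1.77. hspb1, a small heat shock protein, had 3.01, with 53.9% of its member UMIs in 1 cell. podxl had 3.86 and prkar2aa 4.09, each with 0 to 19 CPM in members of the uninjured libraries. In 1 cell each lay 23.3% of the member UMIs of mhc1uba, 24.5% of pcna, 26.3% of hist1h4l and 26.2% of podxl. For h3f3b.1 and prkar2aa the top cell held 12.2% and 11.5%.

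id2a, an inhibitor of bHLH factors, had a term of -1.50, with 695, 2562, 492 and 2354 CPM in members, against 945, 1154, 1013 and 1364 CPM in other cells. Its member UMIs came from 82 cells. hbegfa, a growth factor of the EGF family, had -1.69, with 3441, 1737, 1170.1 and 1822 CPM in members, against 937, 338, 883 and 130.4 CPM in other cells, so that members were above other cells in 4 of 4 libraries and by less in the injured ones. fabp7b had -5.59 and rested on 106 UMIs in 7 members, and tnfrsf19 had -9.46 on 8 UMIs. timp2b, a metalloproteinase inhibitor, had -4.47, with 18.3, 37, 34.9 and 228 CPM in members, against 80, 28.7, 279 and 27.7 CPM in other cells. It rested on 34 UMIs in 18 members, 32.4% of them in 1 cell. icn had -2.48, irf1b -2.14 and calm1a -1.63.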

How the results depend on the processing

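Against the 281 higher and 508 lower genes, 117 and 137 were called with depth-matched other cells, 11 and 419 with cells thinned to 1000 UMIs, 196 and 1055 with each gene counted once per cell, 168 and 193 with DESeq2, 469 and 315 with library totals, and 183 and 614 among members with nkx2.1, a setting chosen after seeing the data. The replicate block here is the library shared by both classes, and without it 89 and 160 genes were called. Leaving out each library in turn gave 142 to 270 higher and 257 to 455 lower genes. mgst1.2, slc6a1b, sulf1, olig2, endouc, nkx2.4b, gch2, sp8a, emx2, emx3, pax6a, efnb2a, boc, cdon, gas1a, aqp1a.1, mdka, dla and wnt7aa kept direction and call in every setting in which they were tested. Thinning dropped cells below the target and left few members, and the cause of the calls lost there was not tested.

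Values that changed sign were as follows (log2). Thinned to 1000 UMIs, where the median over all genes was -2.57 against -0.18 before, so that a sign there says little of a gene, adgrv1 had -0.27, tagln2 -1.57, foxb1a -5.03, her9 -0.67, wnt8b -5.29, fabp7b -6.31, slc1a3b -0.38, cdh6 -0.21, hbegfa -0.52, top2a -4.83, mki67 -5.54, rrm2 -8.06, cdk1 -5.16, mcm2 -6.62, mcm3 -6.09, mcm5 -6.17, mcm6 -6.49, stmn1a -1.91, tyms -5.43 and tubb2b -1.78. With at least 3 rule genes, barhl2 had -5.23, foxb1a -1.80, wnt8b -6.94, fabp7b -8.15 and rspo2 -6.30. Among members with nkx2.1, foxa1 had -0.50, foxb1a -1.52, wnt8b -6.77, fabp7b -7.89, rspo2 -6.18 and rrm2 -0.071. With depth-matched cells her6 had 0.051 and mki67 -0.0046. Counted once per cell, slc1a3b had -0.32 and hbegfa -0.14. lin28a ranged between -0.18 without the injured MTZ library and 5.47 without the injured library. The cause of these changes was not tested.

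The genes that passed the class by injury test, 8 positive and 9 negative, became 1 and 2 with at least 100 UMIs, 0 and 0 counted once per cell, 5 and 1 among members with nkx2.1 and 0 and 2 with DESeq2, and 14 were negative with library totals. Shares thinned to 1000 UMIs were 0.891%, 0.560%, 0.977% and 0.462% in the injured MTZ, uninjured MTZ, injured and uninjured libraries. With at least 3 rule genes they were 2.16% and 0.638% in the MTZ pair, and thinned to 3000 UMIs 0.877% in the uninjured MTZ library. The median held-out log2 ratio of slit2 was 5.75 without cells of other types and 4.29 when thinned. Genes at least 2-fold apart within members, in injured MTZ over uninjured MTZ, injured over uninjured, injured MTZ over injured and uninjured MTZ over uninjured, numbered 831, 826, 622 and 207 at a minimum of 20 UMIs, 683, 616, 587 and 168 at 1.5-fold, and 24, 0, 0 and 0 counted once per cell, where few genes reached 50 UMIs. With at least 3 rule genes the last of these contrasts gave 38. The alternatives planned for members with and without nkx2.1 were not run, since that split was not tested. The uninjured library, with 52684 member UMIs, sets the precision of the comparisons that use it.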
